A study of Homo sapiens with 4 samples.

Results

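The 6 genes IRF2, IRF3, IRF5, IRF7, IRF8 and IRF9 encode interferon regulatory factors, and they were listed by name among 20037 protein-coding genes. IRF3 ChIP peaks were collected for each gene when the summit, the position of highest signal in a peak, lay within the gene span or up to 50 kb beyond either end. The material was MM1.S, an established human multiple myeloma cell line that stands for malignant plasma cells, grown without treatment in RPMI medium with 10% serum. Cells were fixed with 1% formaldehyde and chromatin was sheared below 500 bp. DNA was then pulled down with an antibody against IRF3 and sequenced. The 4 samples were 2 IRF3 ChIP replicates and 2 input replicates of the same untreated cells, so no group of samples stood against another and no test between conditions was made. The labels name no separate cultures, and the spread between the replicates may be technical. MM1.S is a single line, and its values say nothing of the spread between patients.

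Interferon regulatory factors share an N-terminal DNA-binding domain that recognises repeats of GAAA, the core of the interferon-stimulated response element. IRF3 and IRF7 are held in the cytoplasm until kinases downstream of nucleic-acid sensors phosphorylate them, after which they enter the nucleus and switch on interferon genes. IRF9 joins STAT2 in the complex that answers type I interferon, IRF5 acts below Toll-like receptors, IRF8 directs B-cell and myeloid development with the ETS factor PU.1, and IRF2 is best known as an antagonist of IRF1. Several of these genes are themselves targets of interferon signalling, which makes their own chromatin a place where the family can meet its members.

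Peak calling rested on 38568845 ChIP tags in replicate 1 and 46474586 in replicate 2, and gave 41880 and 41666 peaks. The median fold enrichment, the ratio of ChIP to local input signal that the authors' peak caller gave each peak, was 3.90 in replicate 1 and 4.30 in replicate 2. Peaks of both replicates that overlapped were merged, which left 32246 shared regions. The line was checked against marker genes through occupancy, meaning a shared region with its summit within 1 kb of either end of the gene span. Of all protein-coding genes, 50% were occupied in this way. All 10 plasma cell markers were occupied, against 1 of 5 B-cell markers, 2 of 4 T-cell markers, 1 of 5 myeloid markers, 0 of 4 epithelial markers and 1 of 4 fibroblast markers. The marker list was chosen with earlier results of these data known. A peak shows chromatin enriched over input and not expression, so the marker counts describe the map and not RNA. Input was the only control, so how far the peaks reflect direct IRF3 binding was not tested.

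Each of the 6 genes had IRF3 ChIP peaks nearby, and their number differed widely between the genes. The windows held 47 peaks of replicate 1 and 52 of replicate 2, which merged into 42 shared regions, 3 regions of replicate 1 alone and 6 of replicate 2 alone. IRF2 had 17 shared regions, IRF9 had 9, IRF3 had 6, IRF7 had 5, IRF5 had 4 and IRF8 had 1. All 6 windows thus held at least 1, which is no particular feature of these genes, since 84.4% of protein-coding genes had a shared region in a window made the same way. The median gene had 3. Of all protein-coding genes, 0.225% had as many as IRF2, 5.30% as many as IRF9, and 84.4% as many as IRF8. The windows of IRF2 and IRF8 contained no end of another protein-coding gene, while those of IRF3 and IRF7 contained ends of 7 other genes each, that of IRF5 of 2 and that of IRF9 of 14.

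**Figure D1:**
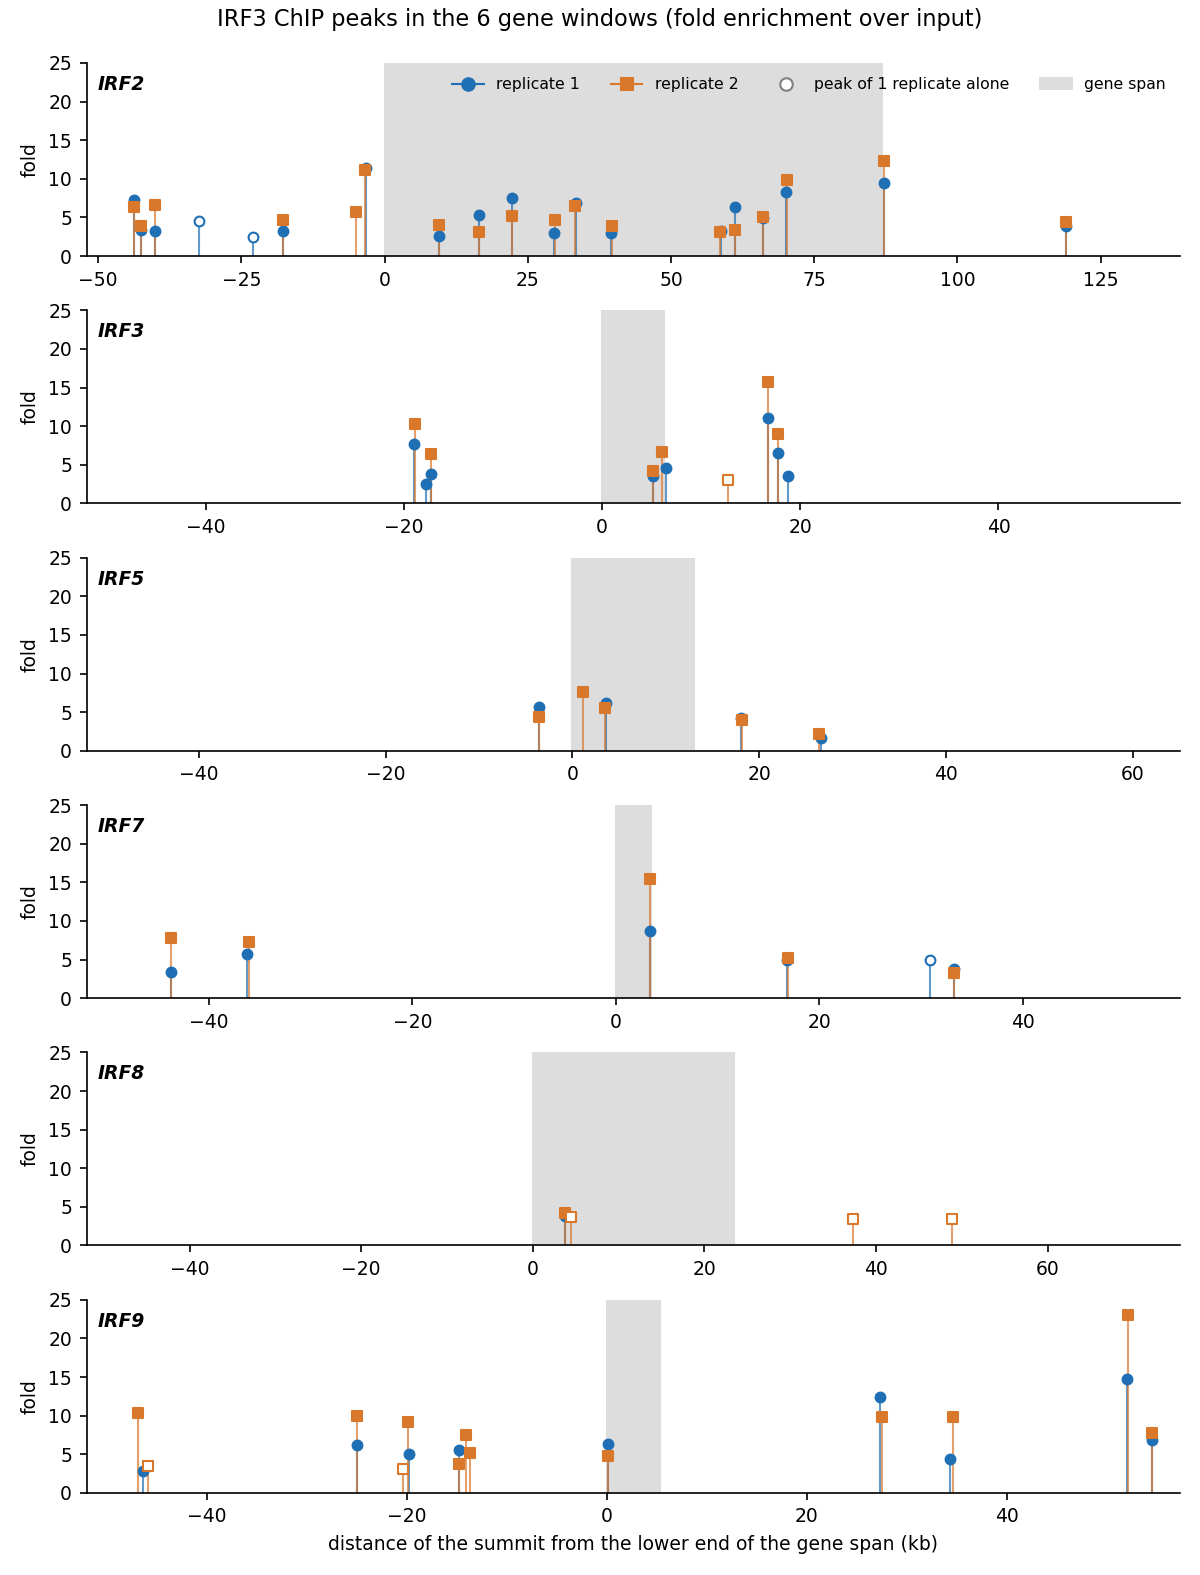
IRF3 ChIP peaks in the 6 windows, with the distance of each summit from the lower-coordinate end of the gene span (kb) across and fold enrichment over input (a ratio) upward. Circles are replicate 1 and squares replicate 2, open symbols are peaks of 1 replicate alone, and grey marks the gene span; IRF2 carries summits on both sides of a gap in the middle of its span, whereas IRF8 has a single pair of filled symbols.

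**Figure D2:**
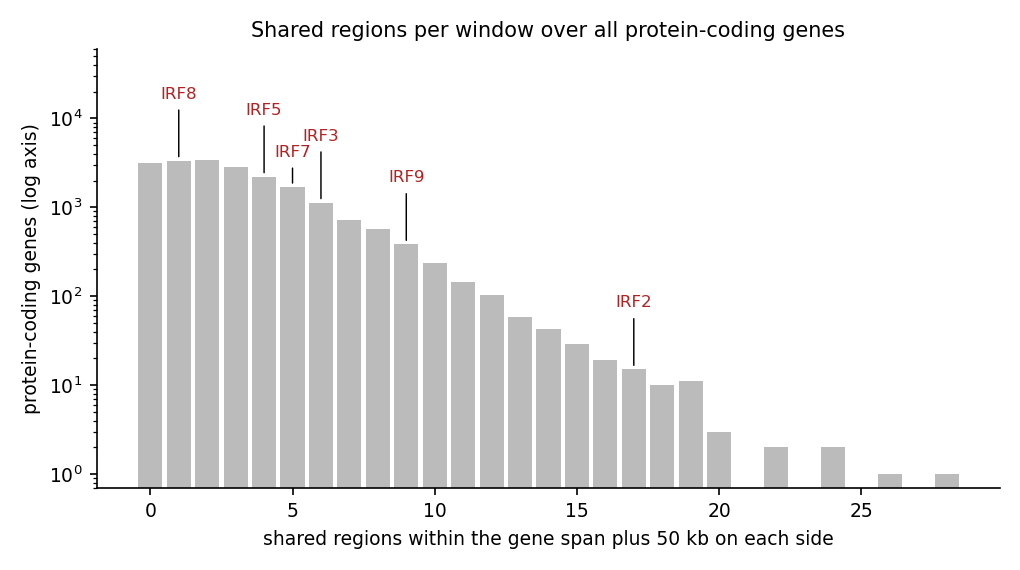
Number of protein-coding genes (log axis) by the number of shared regions in the span plus 50 kb on each side, with the bar of each of the 6 genes named. IRF2, with 17, lies far in the upper tail, and IRF8, with 1, lies at the low end of the horizontal axis.

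The shared regions of the 6 windows had medians above those of all shared regions. Their median fold enrichment was 5.17 in replicate 1 and 6.49 in replicate 2, against 4.28 and 4.94 over all shared regions. Replicate 2 gave the higher value in 30 of the 42 (71.4%), compared with 68.2% of all shared regions. Summits of the replicates lay a median of 62.5 bp apart, and 48 bp over all shared regions. Of the 42, 20 had an end of one of the 6 genes as the nearest end of a protein-coding gene, and 22 lay nearer to another gene. The IRF2 window, without an end of another protein-coding gene, gave 14 of the 20. Among those 22, 13 were within 1 kb of that other gene.

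**Figure D3:**
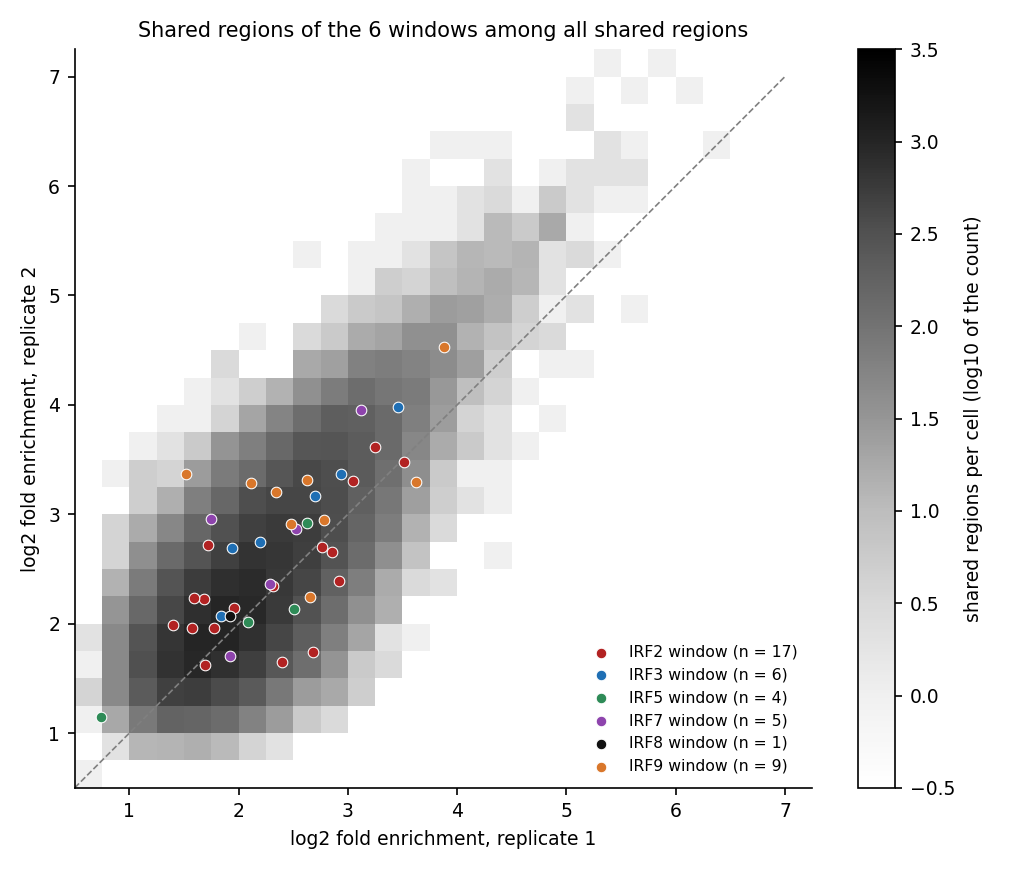
Fold enrichment in replicate 1 (across) and replicate 2 (upward) on log2 scales for all 32246 shared regions (grey, darker for more regions) and for the 42 shared regions of the 6 windows (coloured points). The coloured points lie within the grey cloud, mostly above the dashed line of equal values.

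At the genes' own ends, 4 of the 6 were occupied, namely IRF2, IRF3, IRF7 and IRF9. The share of protein-coding genes occupied in this way was 50%, so a count of 4 of 6 is close to the background. IRF2 and IRF7 were the genes occupied with a fold enrichment of at least 5 in each replicate, beside 28.6% of protein-coding genes. IRF5 and IRF8 were not occupied at an end of their spans, and their regions lay inside, at annotated transcription starts. IRF5 was just missed, since the strongest peak of replicate 2 had its summit 1105 bp from the span end. A RefSeq table listed transcription starts for IRF5, IRF8 and IRF9, and all 3 had a shared region within 1 kb of a listed start, as did 54.4% of the 15843 protein-coding genes in that table.

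The genes are described below by role, beginning with the inducers of interferon. IRF7 (gene ID 3665, chromosome 11, 612555 to 615950 on GRCh38) is the factor that amplifies the interferon response after its first wave. Its own region (chromosome 11, 615212 to 616482) had a fold enrichment of 8.69 in replicate 1 and 15.5 in replicate 2 (mean 12.1 ± 4.79, SD, n = 2). Both values lay above 94.1% and 96.7% of the peaks of their lists. The summits of the replicates were 9 bp apart, 68 and 77 bp inside the higher-coordinate end of the gene. The fragments stacked to a pileup of 204 in replicate 1 and 149 in replicate 2, with −log10 q values of 115 and 122. The region was the only one in the window of which IRF7 was the nearest coding gene, although the lower end of CDHR5, a cadherin gene, lay 633 bp beyond the end of IRF7 and also within 1 kb of the summit.

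The rest of the IRF7 window was weaker. A region 36.0 kb from the gene, at the lower end of PHRF1, a gene of a ring finger protein, had 5.76 and 7.29, and another 13.4 kb away on the SCT side had 4.89 and 5.16. A peak of replicate 1 alone with a fold enrichment of 4.95, the strongest such peak in the 6 windows, lay 764 bp from DEAF1.

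IRF3 (gene ID 3661, chromosome 19, 49659572 to 49665857) encodes the immunoprecipitated factor itself. The region at its end (49665358 to 49666285) had 4.57 in replicate 1 and 6.69 in replicate 2 (mean 5.63 ± 1.5, SD, n = 2), and pileups of 110 and 83. It ranked above 67.4% of all shared regions, but above only 37.1% of the best-ranked regions at the ends of occupied protein-coding genes. The summits lay 371 bp apart, on opposite sides of the gene end, 164 bp outside it in replicate 1 and 207 bp inside it in replicate 2. The lower end of BCL2L12, a gene of the BCL2 family, lies 715 bp inside the IRF3 span, so the same region sat in both genes and cannot be told apart between them. A second region inside IRF3 (49663785 to 49664953), with 3.59 and 4.20, was 392 bp from that end of BCL2L12.

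The strongest signal near IRF3 belonged to its neighbours. At PRMT1, an arginine methyltransferase gene, the fold enrichment was 11.0 in replicate 1 and 15.7 in replicate 2, with the summit 10.4 kb from IRF3. A further region inside PRMT1 had 6.51 and 9.0. At the facing ends of RRAS, a small GTPase gene, and SCAF1, 19.0 kb from IRF3 on the other side, the values were 7.65 and 10.3. In both replicates each of these 3 regions exceeded the region at the IRF3 end. All 6 shared regions of the IRF3 window were higher in replicate 2.

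IRF9 (gene ID 10379, chromosome 14, 24161265 to 24166565) supplies the DNA contact of the interferon-activated STAT complex. Its region (24160881 to 24161721) had 6.30 in replicate 1 and 4.75 in replicate 2 (mean 5.52 ± 1.09, SD, n = 2), the lower value being in replicate 2. In the own regions of the other 5 genes the strongest peak was higher in replicate 2, for IRF5 at a different position. Pileups were 89 and 44, and the −log10 q values 39.7 and 15.4. Both summits lay downstream of the listed start, by 137 and 147 bp, only 10 bp apart. The higher end of the gene RNF31 lay 610 bp before that start and was also within 1 kb of the summit. The upstream sequence is shown because the peak of replicate 1 took in the whole 300-base promoter window and that of replicate 2 took in 187 bases of it. The 250 bases before the start are at chr14:24161015-24161264 on GRCh38.p14, plus strand, from RefSeq, with matches to the searched motifs in capitals:
IRF9: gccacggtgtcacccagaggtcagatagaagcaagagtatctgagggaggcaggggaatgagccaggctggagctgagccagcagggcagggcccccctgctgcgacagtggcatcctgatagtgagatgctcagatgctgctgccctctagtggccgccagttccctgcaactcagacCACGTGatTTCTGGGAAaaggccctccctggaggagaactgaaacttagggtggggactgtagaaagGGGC

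The capitals in the IRF9 promoter are an E-box (CACGTG) that begins 71 bases before the start, a STAT-type site that begins 63 bases before it, and the first letters of a GC box across the start. The STAT-type motif was searched as TTCNNNGAA and occurred in 7.66% of 34943 RefSeq promoter windows of 300 bases, the E-box in 7.23%, and the GC box, GGGCGG, in 44.9%. The STAT-type match lay 196 and 206 bp from the summits of replicates 1 and 2, and a match of letters is no proof of a site. The search also covered the IRF pair GAAANNGAA (8.10% of windows), the ETS-IRF composite GGAANNGAA (7.80%), the AP-1 site TGANTCA (7.72%), the ETS site CCGGAAG (10.2%) and CCAAT (34.6%), all on both strands. The 2 GC boxes of a pair may share a base, and the IRF and ETS-IRF patterns differ at their second letter and cannot match at the same position on a strand. None of those 5 was found in the IRF9 window.

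In the IRF9 window 11 of the 14 other genes were occupied, as were 5 of 7 in the IRF3 window, 4 of 7 in the IRF7 window and 1 of 2 in the IRF5 window, beside 50% of all protein-coding genes. Neighbouring genes can share a region, as CHMP4A, MDP1 and NEDD8-MDP1 did, and RRAS and SCAF1, so the counts are not of separate regions. BCL2L12 and CDHR5 were counted through the regions at the ends of IRF3 and IRF7. The IRF3 and IRF7 counts also each include a gene whose region lay outside the window, at its other end. The best-ranked region lay 46.7 kb from IRF9 at CHMP4A, a gene of the ESCRT-III membrane scission machinery, with 14.7 in replicate 1 and 23.1 in replicate 2. That region stood above 99.1% of all shared regions and was the strongest of the 42. IPO4, a nuclear import receptor gene, had 12.4 and 9.79. PSME1 and PSME2, which encode the subunits of the proteasome activator PA28 and are known interferon targets, have summits 25 and 14.1 kb upstream of IRF9 and had 6.17 and 9.93, and 5.59 and 7.53; the latter region was nearer to an end of RNF31, a linear ubiquitin ligase gene. The region at DCAF11 differed most between the replicates, with 2.87 and 10.3, a log2 ratio of 1.85, with summits 526 bp apart, so the values belong to different positions. The summit nearest to the window limit on the inside was 49.27 kb from IRF9, with a fold enrichment of 6.86, and the nearest outside was 50.84 kb away, with 4.79.

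IRF5 (gene ID 3663, chromosome 7, 128937032 to 128950038) encodes a factor of inflammatory cytokine induction and is transcribed from several starts, of which 4 were listed. A single region of 3975 bp (128937476 to 128941450), longer than 99.5% of shared regions, covered them all. In replicate 1 it was 1 peak with a fold enrichment of 6.18 and its summit 65 bp before the third start. In replicate 2 the same stretch was called as 2 peaks, one with 7.58 and its summit 210 bp after the first start and 80 bp before the second, the other with 5.59 and its summit 119 bp before the third start, and the fourth start lay outside both. Both replicates thus had a summit near the third start and differed in which part was highest, and the mean of their strongest values, 6.88 ± 0.990 (SD, n = 2), joins positions 2468 bp apart.

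The starts of IRF5 are shown because they differ in sequence within 1 merged region. The first 3 stretches of 250 bases lie at chr7:128937677-128937926, chr7:128937967-128938216 and chr7:128940420-128940669, and the last is a 24-base stretch across the fourth start at chr7:128941252-128941275, all on the plus strand of GRCh38.p14 from RefSeq, with motif matches in capitals:
IRF5 start 1: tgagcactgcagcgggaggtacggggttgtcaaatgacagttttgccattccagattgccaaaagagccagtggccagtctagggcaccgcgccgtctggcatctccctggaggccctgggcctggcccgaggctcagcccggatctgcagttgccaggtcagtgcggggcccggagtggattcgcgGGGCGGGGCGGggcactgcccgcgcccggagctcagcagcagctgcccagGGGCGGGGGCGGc
IRF5 start 2: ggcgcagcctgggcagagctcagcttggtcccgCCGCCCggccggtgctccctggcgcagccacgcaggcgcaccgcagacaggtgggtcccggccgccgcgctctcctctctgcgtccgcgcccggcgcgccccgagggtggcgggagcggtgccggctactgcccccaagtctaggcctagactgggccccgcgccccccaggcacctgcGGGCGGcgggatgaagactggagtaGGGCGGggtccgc
IRF5 start 3: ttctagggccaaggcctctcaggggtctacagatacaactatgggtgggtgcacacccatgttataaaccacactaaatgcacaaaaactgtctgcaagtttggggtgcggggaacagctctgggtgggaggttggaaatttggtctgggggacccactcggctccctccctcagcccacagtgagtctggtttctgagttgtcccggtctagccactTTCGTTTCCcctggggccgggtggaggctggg
IRF5 start 4: tagagctgtggcTTCTGTTTCctg

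The first and second starts of IRF5 were GC-rich, at 70.3% and 76.0% GC in their windows against a median of 58.7% over all promoter windows, and they held 4 and 3 GC boxes and no other searched motif. The third start, at 58.3% GC, held an ETS-IRF composite on the opposite strand that begins 32 bases before the start. That site was 37 bp from the summit of replicate 1 and 91 bp from the nearer summit of replicate 2. The fourth start held an IRF pair, also on the opposite strand, across the start itself, 663 and 717 bp from the nearest summits.

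Around IRF5 there were 3 further shared regions. A region 3.57 kb before the gene span had 5.69 and 4.39. Another in TNPO3, a nuclear import gene, 877 bp from its lower end, had 4.24 and 4.04. The remaining one, 13.4 kb from IRF5, had 1.67 and 2.22 and was among the weakest of the whole map, at rank 32240 of 32246.

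**Figure D4:**
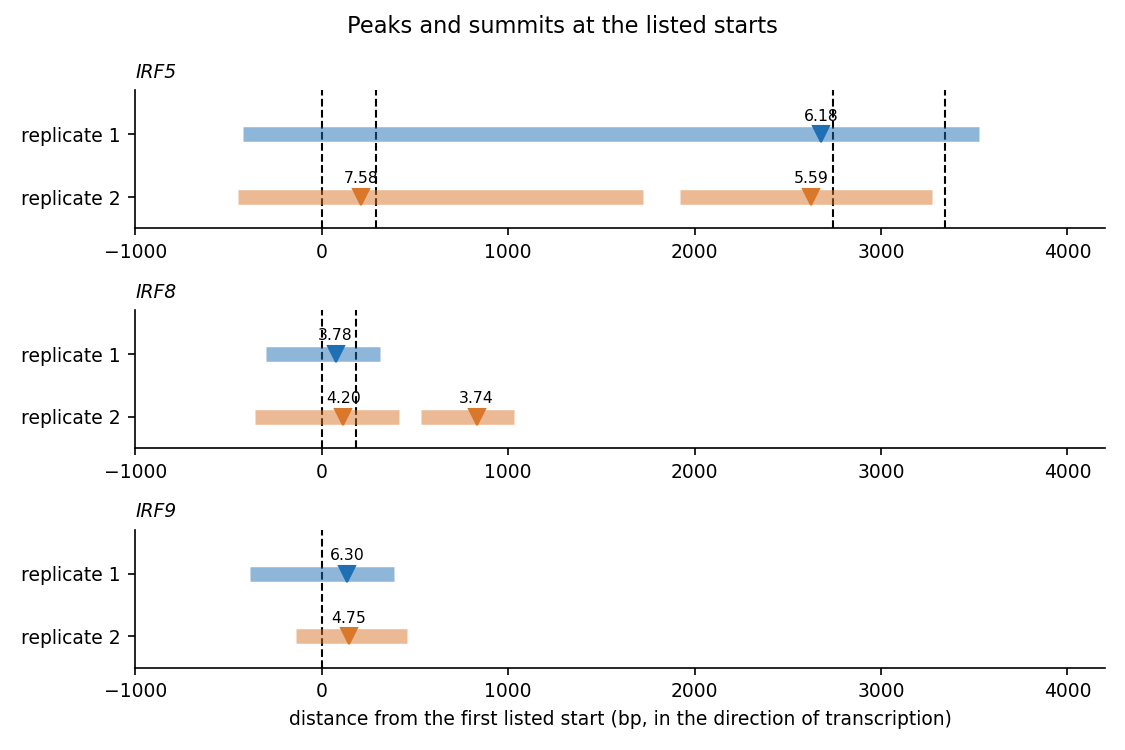
Peaks (bars), summits (triangles) and fold enrichment (numbers, a ratio) in each replicate around the listed starts (dashed lines) of IRF5, IRF8 and IRF9, by distance from the first listed start in bp. The merged IRF5 region spans 4 starts, the IRF8 summits fall between 2 starts and the IRF9 summits fall just after the start.

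IRF8 (gene ID 3394, chromosome 16, 85899162 to 85922609), a factor of B-cell and myeloid identity, had the least signal of the 6 genes. Its only shared region (85902474 to 85903247) had 3.78 in replicate 1 and 4.20 in replicate 2 (mean 3.99 ± 0.296, SD, n = 2), near the medians of the lists. Pileups were 48 and 42, the −log10 q values 12.5 and 12.7, and the region stood above 50.6% of all shared regions. Beside the best-ranked regions at the ends of occupied protein-coding genes, it stood above only 22.6%. The summits, 75 and 117 bp after the first listed start and 110 and 68 bp before the second, fell between the 2 starts, 3.74 and 3.79 kb inside the lower end of the span. The 3 other peaks of the window were found in replicate 2 alone, at 3.74, 3.38 and 3.38. Beyond them the next peak was 99.32 kb from the gene. Of the genes within a factor of 2 of its length, 29.9% had as few shared regions in their windows.

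The sequence before the first listed start of IRF8 is shown because none of the 8 motifs occurred in the window of either listed start. The 250 bases before the first listed start are at chr16:85902580-85902829, plus strand, from the same RefSeq build:
IRF8: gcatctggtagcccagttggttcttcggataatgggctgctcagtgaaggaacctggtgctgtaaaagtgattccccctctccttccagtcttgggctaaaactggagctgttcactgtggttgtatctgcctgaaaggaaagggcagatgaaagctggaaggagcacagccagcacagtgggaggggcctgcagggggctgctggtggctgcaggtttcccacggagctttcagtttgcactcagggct

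The windows of both IRF8 starts were 56.3% and 55.0% GC, and lay whole within the peaks of each replicate. The absence of these letters concerns only these windows. No start was listed at the lower end of the span, so the sequence there was not searched.

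IRF2 (gene ID 3660, chromosome 4, 184387729 to 184474550) had the most shared regions of the 6 genes, at 9.10 per 100 kb. The density was 8.55 in the IRF9 window, and the median over all protein-coding genes was 1.72. In the IRF9 window 8 of the 9 shared regions lay nearer to another coding gene, against 3 of 17 in the IRF2 window. The order of the IRF2 and IRF9 densities turned among peaks with a fold enrichment of at least 5. Each window then held 6 regions (3.21 per 100 kb for IRF2 and 5.70 for IRF9). The order also turned without replicate 1, with 18 and 13 peaks (9.63 and 12.3 per 100 kb). The region at its higher-coordinate end (184471510 to 184475567) had 9.48 in replicate 1 and 12.3 in replicate 2 (mean 10.9 ± 1.97, SD, n = 2), with pileups of 248 and 175. The summits lay 276 and 332 bp beyond the end of the gene, just past the lower end of the long non-coding RNA gene IRF2-DT, which is 252 bp from the end of IRF2. This region was 4.06 kb long. A region of nearly the same strength and length, 11.4 in replicate 1, 11.1 in replicate 2 and 4.04 kb, lay 3.29 kb beyond the opposite end of the gene. That region took in a listed start of the non-coding RNA gene LINC02362, 2130 bp from its summit.

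Within the body of IRF2, more than 1 kb from either end, there were 10 shared regions. Their fold enrichment ran from 2.65 to 8.28 in replicate 1 and from 3.09 to 9.85 in replicate 2. The strongest, 16.7 kb inside the higher end, had 8.28 and 9.85 and stood above 91.4% of all shared regions, and the next by rank had 6.81 and 6.51. Among 5320 protein-coding genes within a factor of 2 of the length of IRF2, the median number of shared regions in the body was 0, and 0.376% had as many as IRF2. Exons and introns were not analysed here. Of the 17 shared regions of the window, 10 were higher in replicate 2 and 7 in replicate 1.

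The order of the genes by their own region was IRF7, IRF2, IRF5, IRF3, IRF9 and IRF8, with each region placed by its lower-standing replicate. Beside the best-ranked regions at the ends of occupied protein-coding genes, these own regions stood above 87.5%, 86.4%, 61.5%, 37.1%, 31.0% and 22.6%, in that order. The own region was at a span end for IRF2, IRF3, IRF7 and IRF9, and at a listed start inside the span for IRF5 and IRF8. No start was listed for IRF2, IRF3 or IRF7, so the order compares unlike places. The order was not the same in each replicate. In replicate 1 IRF2 led IRF7, and IRF9 had rank 3 with 6.30, whereas in replicate 2 IRF9 had rank 5. The replicate ranges overlapped between IRF7 and IRF2, between IRF5 and IRF3, and between IRF3 and IRF9, so these neighbours in the order do not differ beyond their spread over the 2 libraries. Within each library, the strongest IRF5 peak was above IRF3 both times, but these IRF5 peaks had summits at different positions. At the third IRF5 start, with a summit in both replicates, IRF5 had 6.18 and 5.59. IRF3 had 4.57 and 6.69, so IRF5 was lower there in replicate 2. The order of IRF7 and IRF2 and that of IRF3 and IRF9 turned between the libraries. The ranges did not overlap between IRF2 and IRF5 or between IRF9 and IRF8. With 2 values a gene, no test was made.

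**Figure D5:**
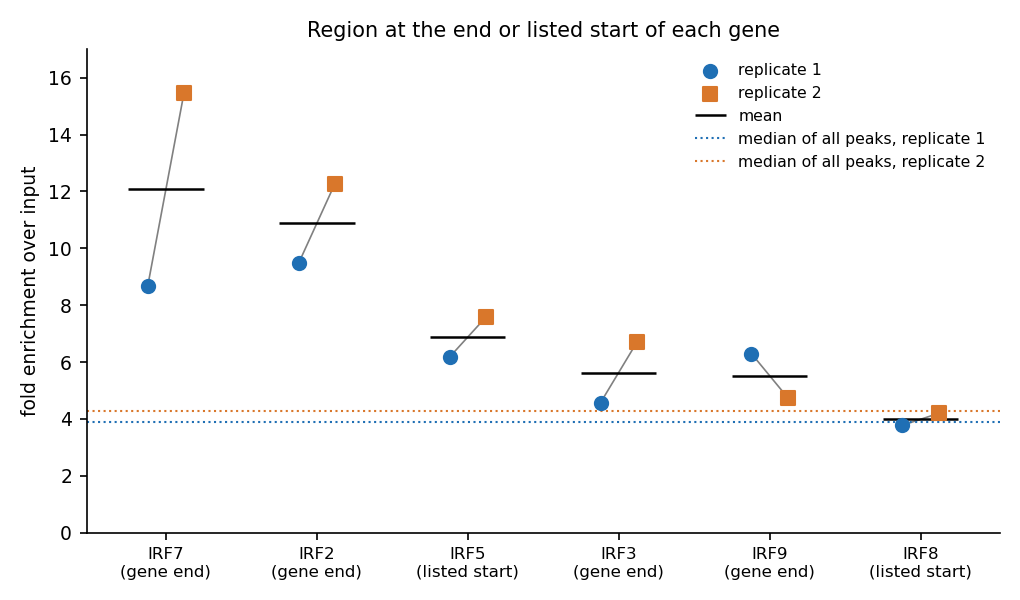
Fold enrichment over input (a ratio) of the region at the end or listed start of each gene, in the order of the text, with circles for replicate 1, squares for replicate 2 and black lines for the mean of both; dotted lines are the median of all peaks of each list. IRF7 and IRF2 lie highest, and IRF8, with 3.78 and 4.20, lies near the medians.

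Strength compared across these genes has different signal behind it. Pileup divided by fold enrichment, which follows the local input level, had a median of 37.7 in replicate 1 and 20.8 in replicate 2 over the regions of the IRF5 window, and 12.9 and 6.37 over those of the IRF9 window. Over all shared regions the medians were 18.0 and 11.2. A fold enrichment at IRF9 thus rested on fewer stacked fragments than an equal one at IRF5, and the part of this in the order above was not tested.

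The genes that act with these factors were occupied at their ends in 27 of 31 cases, beside the 50% of all protein-coding genes. This list was chosen with earlier results of these data known, so the count is a description and no test. IRF4 and SPI1 are also among the marker genes. Among other members of the family, IRF4, on which myeloma cells depend, had 20.1 and 52.4 and IRF1 had 14.8 and 26.6, both above all 6 genes described here in each replicate. Among partners on DNA, 6 of 8 were occupied. STAT2, whose product is a partner of IRF9, had 7.45 and 7.42. The AP-1 gene JUNB had 21.2 and 35.9, and SPI1, which encodes PU.1, had 4.33 and 3.40. SPIB and BATF3 were not occupied.

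Upstream of the factors, 11 of 12 kinase and adaptor genes were occupied, STING1 being the exception. The kinase genes IRAK4 and IRAK1 of Toll-like receptor signalling had 6.73 and 18.0, and 11.7 and 15. SLC15A4 and TASL, whose products recruit IRF5 at the lysosome, had 7.91 and 12.6, and 5.60 and 9.20. All 6 receptor and Janus kinase genes of interferon signalling were occupied, with 8.03 and 11.2 at IFNAR1 and 8.80 and 8.37 at IFNAR2, the chains of the type I receptor. Of the corepressor genes named for binding IRF2, IRF2BPL had 10.4 and 18.5 and IRF2BP1 had 5.74 and 5.16. IRF2BP2 was just missed, with a region of 11.1 and 19.8 at 1.09 kb from its end.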

How the data were processed

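IRF3 ChIP-seq peak lists of 2 replicates were analysed. Per the file headers, MACS2 2.1.2 was run by the authors on each ChIP library against an input library, with broad calling off, at a q-value cutoff of 0.05 with all duplicate tags kept. Per the submitters' processing notes, the tools were MACS2 2.1.1, deepTools 3.3.1, SAMtools 1.2, Picard 2.6.0 and BWA 0.7.15, on GRCh38. Whether duplicates or problem regions were removed earlier is not stated in the labels or headers used. The deposited fold enrichment is a ratio of ChIP to local input at the summit, the deposited pileup is a signal (stacked fragments at the summit), and the deposited −log10 p and −log10 q stood under damaged column names and were told apart by column order and values.

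Peaks overlapping by at least 1 bp were merged with pandas 2.3.3 and numpy 2.4.6 under Python 3.11.15 and called shared when both replicates contributed. Merging and distances were tested on simulated data. Regions were ranked by the worse within-list rank of their strongest peaks. Gene spans came from a RefSeq table of GRCh38.p14 without strand or exons, and listed starts and sequences from a RefSeq promoter table that held 7 starts for IRF5, IRF8 and IRF9. The named genes were the 6 genes, the 3 best-ranked regions and 2 best-ranked neighbours of each window, the strongest peaks of 1 replicate alone, and lists of partner and marker genes (T-cell marker TRAC is not protein-coding and was left out). Of the partner lists, 2 genes are not reported here and are not in the counts. A few genes beyond this rule were chosen after their values were seen: CDHR5, DCAF11, PSME2, RNF31, BCL2L12, IRF2-DT and LINC02362. The members and lists were chosen with earlier results of these data known. Peak lists of the ChIP libraries alone were used, with no test between groups of samples, so values are given beside the share over all protein-coding genes. Alternatives were stricter peaks, stricter sharing, other distances and each replicate alone.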

Additional observations from a re-analysis of the deposited data

How the results depend on the processing

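Of 37 alternatives to the counts, 30 gave a value within 1.5 times of the original. The exceptions came with narrower or wider limits. The counts of these genes occupied at an end or a listed start could not rise past 1.5 times. Only 6 genes were counted, 3 of them with listed starts. When peaks had to reach a fold enrichment of 5, the windows held 18 shared regions, 2 genes were occupied at an end, 1 at a listed start, and 5729 protein-coding genes were occupied. The 42 shared regions became 16 within the gene spans alone, 20 with 10 kb added on each side and 64 with 100 kb added. When summits had to lie within 100 bp of each other, 30 regions were shared and IRF3 was no longer occupied. Within 5 kb of an end, all 6 genes were occupied, as were 11800 protein-coding genes. With listed starts added to the span ends, an alternative chosen after seeing the data, all 6 genes and 10687 protein-coding genes were occupied. With 1 replicate left out, the windows held 47 to 52 peaks, 4 genes were occupied at an end and 3 at a listed start, and 10295 to 11057 protein-coding genes were occupied. The IRF8 window held 4 peaks of replicate 2 and 1 of replicate 1. The value at the end of IRF7 ranged from 8.69 to 15.5 between single replicates, that of IRF2 from 9.48 to 12.3, that of IRF3 from 4.57 to 6.69 and that of IRF9 from 4.75 to 6.30. No paired analysis was possible because no result comes from a test between groups of samples. The lists hold peaks past the cutoff, so a missing peak means only that none was called at this depth.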

Other observations

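The 8 motifs were also counted in promoter windows with and without a shared region, and the size and direction of the difference varied between motifs. Of 13332 windows with a shared region within 1 kb of the start, 6.51% held the IRF pair GAAANNGAA, compared with 9.08% of 21611 windows without. The ETS-IRF composite occurred in 7.68% and 7.87%. The ETS site CCGGAAG was found in 20.3% and 3.95%, the GC box in 71.4% and 28.5%, the E-box CACGTG in 10.2% and 5.37%, the AP-1 site TGANTCA in 4.26% and 9.86%, the STAT-type site TTCNNNGAA in 5.72% and 8.85%, and CCAAT in 34.9% and 34.5%. Windows with a region had a median GC content of 66.0% and those without 51.7%, and the part of base composition in these shares was not tested. Windows of genes with several starts overlap, so they are not independent.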
